A study of Mus musculus with 3 samples.

Results

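The Pea3 subfamily of ETS transcription factors has 3 members in the mouse, *Etv1*, *Etv4* and *Etv5*, and these 3 rows were read out of the 32285 genes of each count matrix by their symbols. snRNA-Seq was performed on nuclei from the prefrontal cortex (PFC) of male mice aged 6 to 8 weeks, after a sort that mixed NeuN-positive and NeuN-negative nuclei, and it gave 3 libraries. The C57BL/6 library was a pool of 5 mice of this inbred strain. The *Nav1* KO library was a pool of 4 mice on the C57BL/6 background that carry a frameshifting exon deletion in *Nav1*, a gene for a neuronal microtubule-associated protein. The BTBR library came from the inbred strain labelled BTBR T<+> Itpr3<tf>/J, which carries no label for *Nav1* and for which a number of pooled mice was not given in the sources used here. Each group is therefore 1 library without a replicate, so no test between groups was made. The intervals given are exact, at 95%, and describe the counting error of a library without the spread between mice. For pooled values they describe the counting error of the summed counts, without the spread between libraries.

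ETS factors bind DNA through a conserved winged helix domain at sites with a GGA core. The Pea3 members act downstream of fibroblast growth factor (FGF) and other receptor tyrosine kinases: the Ras and ERK cascade raises their transcription and phosphorylates the proteins, the COP1 and DET1 ubiquitin ligase degrades them, and Sprouty and dual specificity phosphatase genes that damp the same cascade are induced alongside them. In the brain, *Etv1* (also called Er81) is known from layer 5 projection neurons and from the dopaminergic interneurons of the olfactory bulb. *Etv5* is known from developing neurons and glia and *Etv4* from branching organs and motor neuron pools, and the FGF pathway is active in oligodendrocyte precursors (OPCs) and astrocytes.

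On mm10, *Etv1* (ENSMUSG00000004151) lies at chr12:38779380-38870484 on the plus strand with 13 annotated transcripts, of which 10 are coding. *Etv4* (ENSMUSG00000017724) lies at chr11:101769742-101785371 on the minus strand with 12 transcripts, 3 of them coding. *Etv5* (ENSMUSG00000013089) lies at chr16:22381309-22439719 on the minus strand with 5 transcripts, 3 of them coding. The coding sequences of Etv1-201, Etv4-212 and Etv5-201 are 1431, 1455 and 1530 bases long. Aligned in pairs, *Etv1* and *Etv5* were identical at 71.5% of 1411 bases, *Etv1* and *Etv4* at 69.5% of 1375 and *Etv4* and *Etv5* at 69.1% of 1372. The longest run of bases shared by a pair was 23 for *Etv1* with *Etv5* and for *Etv4* with *Etv5*, and 18 for *Etv1* with *Etv4*. To show how near and how far the 3 genes are from each other, the most conserved window of 120 bases, which lies in the part that codes for the ETS domain, is printed 5′ to 3′ from base 1150 of the *Etv1*, base 1171 of the *Etv4* and base 1249 of the *Etv5* coding sequence. Capitals mark the 24 positions at which the 3 genes are not all identical.
Etv1: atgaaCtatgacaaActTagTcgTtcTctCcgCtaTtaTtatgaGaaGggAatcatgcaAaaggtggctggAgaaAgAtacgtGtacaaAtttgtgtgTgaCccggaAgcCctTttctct
Etv4: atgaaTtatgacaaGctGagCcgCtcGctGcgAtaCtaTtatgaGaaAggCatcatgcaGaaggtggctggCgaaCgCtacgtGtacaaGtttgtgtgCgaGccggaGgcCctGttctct
Etv5: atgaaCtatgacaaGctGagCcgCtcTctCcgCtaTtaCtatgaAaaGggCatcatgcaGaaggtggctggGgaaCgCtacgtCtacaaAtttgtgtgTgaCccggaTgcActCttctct
The bases of 96 positions are shared by all 3. Pairwise, 105 bases are identical between *Etv1* and *Etv5*, 104 between *Etv4* and *Etv5* and 100 between *Etv1* and *Etv4*.

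Of 15402, 14623 and 15238 barcodes in the C57BL/6, *Nav1* KO and BTBR matrices, 14630, 14056 and 14778 nuclei passed the filters, which asked for 200 or more genes and a mitochondrial share below 10%. The first 2 of these numbers are the cell counts stated in the series design, and the count stated there for BTBR equals its barcodes before this filter. Total counts were 38704723, 50965774 and 48948184. The targeted gene was still detected in the *Nav1* KO library, at 264 CPM (260 to 269; counts of the gene per 1000000 counts) against 345 (339 to 351) in C57BL/6 and 146 (142 to 149) in BTBR, but these tags come from transcript 3' ends outside the deleted part and so check nothing about the deletion. Pairs of libraries shared 61 to 71 barcodes. The nuclei were clustered together, and 23 of 31 clusters, with 31562 of 43464 nuclei, took the names of 19 cell classes from marker lists that hold none of the 3 genes. Although the labels give the cell type as neurons and the tissue as PFC, the classes included glia, striatal medium spiny neurons, meningeal fibroblasts, and neurons with olfactory bulb markers. The bulb-type interneurons made up 1.37% of the C57BL/6, 8.87% of the *Nav1* KO and 6.86% of the BTBR nuclei, and mitral or tufted neurons 0.294%, 3.61% and 2.38%. Medium spiny neurons made up 10.2%, 3.44% and 4.24%, so the libraries differed in their makeup. Fewer cells of a type and less RNA per cell cannot be told apart in whole-library values, and the genes are therefore described by class. Since classes were built from the expression of the same nuclei, differences between classes are descriptions.

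The 3 genes had different cell maps. *Etv1* was highest in olfactory bulb-type interneurons and OPCs, stood between 117 and 128 CPM in microglia, mature oligodendrocytes, pericytes or smooth muscle cells and layer 5, and was lowest in layer 2/3 neurons, a span of 5.72-fold over the 19 classes. The first place of the bulb-type class did not hold at a coarser clustering (Leiden resolution 0.8), which gave 134 CPM there, 148 in OPCs and 138 in microglia. *Etv4* had its 6 highest levels in glial and endothelial classes, with OPCs first and astrocytes next, and stood at 0.788 CPM in layer 2/3, 78.7-fold below OPCs. *Etv5* was the most even, with layer 6 corticothalamic neurons, layer 5 neurons and OPCs at the top and a span of 2.7-fold. Layer 2/3 had the lowest pooled level for all 3, although its *Etv5* level in BTBR, 34 CPM, was above that of several other classes. Ordered by pooled CPM, most neighbouring classes could not be told apart: the ranges over the 3 libraries overlapped for 16 of 18 neighbouring pairs for *Etv1* and for 17 of 18 for *Etv4* and for *Etv5*. The ranges that did not overlap separated layer 5 from ensheathing glia and meningeal fibroblasts from mitral or tufted neurons for *Etv1*, Pvalb interneurons from layer 2/3 for *Etv4*, and OPCs from astrocytes for *Etv5*. Values are read here between classes within a gene and not between genes.

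**Figure D1:**
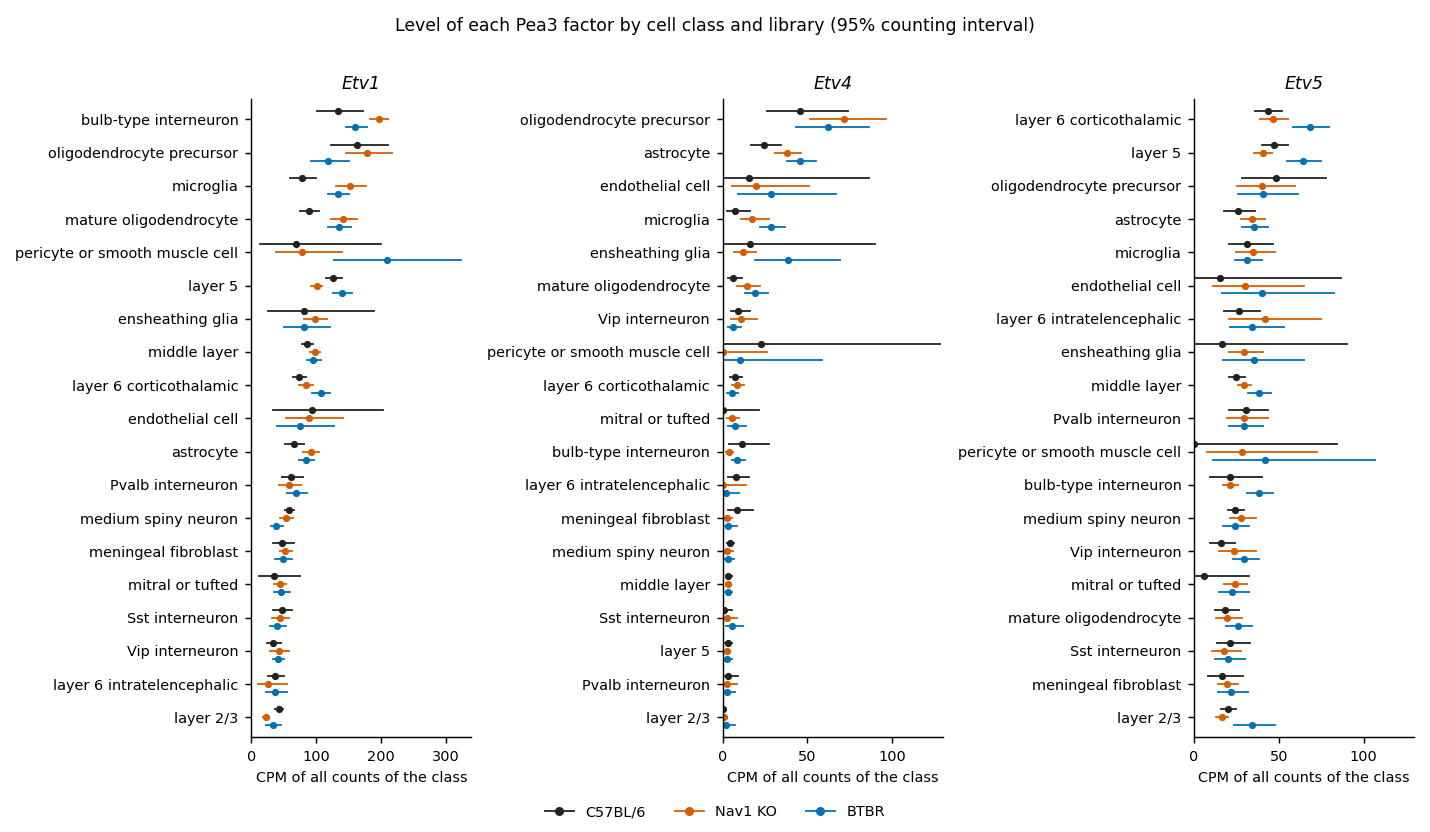
Level of each gene in CPM by cell class, ordered by the pooled level, with 1 point for each library and lines for the exact 95% counting intervals. The pooled *Etv1* level ran from 31.7 CPM in layer 2/3 to 181 in bulb-type interneurons, *Etv4* from 0.788 in layer 2/3 to 62 in OPCs, and *Etv5* from 19.3 in layer 2/3 to 52.1 in layer 6 corticothalamic neurons.

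In the bulb-type interneurons, *Etv1* stood at 134 CPM in C57BL/6, 197 in *Nav1* KO and 161 in BTBR, from 201, 1247 and 1014 nuclei. The C57BL/6 library was the lowest of the 3 and its value rests on 57 counts. Pooled, the class held 181 CPM (172 to 191) against 78.8 in the other named classes, a ratio of 2.3, and 3.71% of the 13743 genes tested were at least 1.5-fold higher in this class. The pooled interval leaves out the spread of the libraries, which ran from 134 to 197 CPM. At a fixed depth of 1000 UMIs per nucleus, a UMI of *Etv1* was found in 17% of the bulb-type nuclei (347 of 2037, 15.4 to 18.7; 30.4% before thinning, median depth 1948 UMIs). The share in layer 2/3, the class with the lowest level, was 3.7% (102 of 2757, 3.03 to 4.47; 9.03% before thinning, median depth 3193), and the lowest share in any class was 2.43% in layer 6 intratelencephalic neurons. The interval of the bulb-type share lay above both of these shares.

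Within the bulb-type class, *Etv1* was unevenly spread. Of its 2 clusters, the larger, with 1942 nuclei and *Tshz1* as the fixed marker among its leading genes, held 136 CPM, and the smaller, with 520 nuclei led by *Trh* and *Th* and with *Sall3* and *Pax6*, held 383. In the 320 nuclei with a UMI of *Th*, which codes for tyrosine hydroxylase, the rate-limiting enzyme of dopamine synthesis, it stood at 248 CPM in C57BL/6, 363 in *Nav1* KO and 300 in BTBR. In the 2142 nuclei without one it stood at 126, 161 and 138, so the nuclei with *Th* were higher in each library, though the C57BL/6 value rests on 7 counts (99.7 to 511) and its interval overlaps that of the nuclei without *Th* (93.3 to 166). Pooled, the intervals did not overlap (341 CPM, 309 to 376, against 151, 141 to 161), with median depths of 2528 and 1844 UMIs. Clustering the class again, an alternative added after the data were seen, gave the highest values in 2 groups. The group led by *Trh*, *Sall3* and *Th* held 414, 586 and 438 CPM in the C57BL/6, *Nav1* KO and BTBR libraries (11, 183 and 118 nuclei; 532 pooled), and 42.7% of its nuclei had a UMI at 1000 UMIs. A group of 57 nuclei led by *Pde5a*, *Slc1a3*, *Egf* and *Nppa*, with *Calb2*, held 381, 801 and 526 CPM (4, 36 and 17 nuclei; 703 pooled). Another group, led by *Syt10*, *Lgr6* and *Cpa6* and with the highest *Gad1*, was even over the libraries at 250, 246 and 258 CPM. At the low end, 221 nuclei led by *Trhr*, *Lmntd1* and *Nos1* held 40.6 CPM. A large group of 702 nuclei at 120 CPM carried 645 CPM of *Slc17a7*, the vesicular glutamate transporter of cortical excitatory neurons, and markers of middle layer excitatory neurons among its leading genes, and its part in the class value was not tested. Among bulb-type nuclei without a UMI of *Slc17a7*, *Etv1* stood at 175, 361 and 218 CPM in C57BL/6, *Nav1* KO and BTBR. Pooled over the libraries it stood at 290 CPM (268 to 313; 1346 nuclei), and a clustering on 4000 variable genes, which drew the class differently, gave 292.

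Among the cortical projection neurons, *Etv1* in layer 5 was 127 CPM in C57BL/6, 101 in *Nav1* KO and 140 in BTBR, and in layer 2/3 it was 42.5, 22.9 and 33, so the ranges of the 2 classes did not overlap. The BTBR value in layer 2/3 came from 306 nuclei, since a cluster nearest to that marker list, mostly from BTBR, stayed unnamed. The layer 5 share at 1000 UMIs was 8.77% (262 of 2986). Divided again, layer 5 split into groups with high and low *Etv1*. The 827 nuclei with the extratelencephalic markers *Pou3f1*, *Bcl11b* and *Fezf2* among their leading genes held 188, 143 and 154 CPM, and the 922 nuclei led by *Rxfp1* and *Il1rapl2* held 120, 153 and 160. The 637 nuclei led by layer 2/3 markers (*Cux2*, *Otof* and *Calb1*) held 34.1, 29.7 and 34.9 CPM, near the values of layer 2/3 itself.

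The highest *Etv1* level outside the bulb-type groups lay in a small population inside the layer 6 corticothalamic cluster. These 291 nuclei, near-projecting-like by *Tshz2*, *Nxph1* and *Vwc2l*, held 570 CPM of *Etv1* in C57BL/6, 630 in *Nav1* KO and 788 in BTBR, from 90, 104 and 97 nuclei, and 49.8% of them had a UMI at 1000 UMIs (134 of 269, 43.7 to 55.9). The 5 other groups of the corticothalamic class held 20.2 to 72.1 CPM. *Etv1* was itself among the 10 leading genes of the near-projecting-like group, as it was of 797 middle layer nuclei led by *Il1rapl2*, which held 171, 226 and 310 CPM in C57BL/6, *Nav1* KO and BTBR against 21.4, 23 and 5.01 in the largest middle layer group. The BTBR values of these middle layer groups rest on few nuclei, 24 in the first and 74 in the largest group. The corticothalamic class value of 87.5 CPM is thus an average over groups that differ widely.

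In OPCs, *Etv1* was 163 CPM in C57BL/6, 179 in *Nav1* KO and 119 in BTBR, and 16.2% of their nuclei had a UMI at 1000 UMIs (82 of 507, 13.1 to 19.7; 23% before thinning, median depth 1266). The pooled level of 153 CPM (134 to 174) was 1.79 times the 85.5 of the other named classes, and 14% of 9868 genes were at least 1.5-fold higher in OPCs. In mature oligodendrocytes *Etv1* was 88.8, 142 and 135 CPM, in microglia 78, 152 and 134, and in astrocytes 65.8, 91.7 and 84.4. Excitatory RNA was present in all 4 glial classes, with 355 to 400 CPM of *Slc17a7* in the pooled class. Leaving out the nuclei with a UMI of a neuronal marker (*Slc17a7*, or the GABA synthesis genes *Gad1* and *Gad2*) gave 200 CPM (163 to 241) of *Etv1* in OPCs, 96.7 in mature oligodendrocytes, 116 in microglia and 93.7 in astrocytes pooled over the libraries. The mature oligodendrocytes were uneven: the group led by the myelin genes *Ermn*, *Mobp* and *Mag* held 70.4 CPM (51 to 94.9; 475 nuclei), with a UMI at 1000 UMIs in 3.03% of its nuclei (7 of 231), against 7.87% in the class. In endothelial cells it was 22.9 CPM without them (6.23 to 58.5; 4 counts) against 84.1, and in pericytes or smooth muscle cells 42.6 (8.79 to 125; 3 counts) against 121, too few counts to compare.

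*Etv4* was highest in OPCs and astrocytes. In OPCs the gene stood at 45.6 CPM in C57BL/6, 71.4 in *Nav1* KO and 62.1 in BTBR, on 16, 43 and 35 counts, and in astrocytes at 24.2, 38 and 45.8, on 32, 105 and 114 counts. OPCs were above astrocytes within each library, although the ranges over libraries overlap slightly. The pooled OPC level of 62 CPM (50.1 to 75.9) was 8.07 times (6.45 to 10) the 7.68 of the other named classes, where 14% of genes pass 1.5-fold. The pooled astrocyte level of 38.2 CPM was 5.95 times the 6.42 elsewhere, where 12.2% of 13771 genes pass. OPCs held 1.09% of all counts and 8.85% of those of *Etv4*, and astrocytes 4.74% and 23.6%. At 1000 UMIs, 7.89% of OPCs had a UMI (40 of 507, 5.7 to 10.6; 11% before thinning) and 4.5% of astrocytes did (91 of 2021, 3.64 to 5.5), against 1.84% of microglia (10 of 543, 0.887 to 3.36; median depth 2916) and 0.109% of layer 2/3 nuclei (3 of 2757). The order of OPCs and astrocytes turned at 2000 UMIs, where only 211 OPC nuclei remained, with 3.79% of OPCs and 6.91% of astrocytes, and at 500 UMIs it was 4.37% and 2.49%. In neurons *Etv4* ran from 0.788 CPM in layer 2/3 to 8.12 in Vip interneurons.

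In OPCs and between the largest astrocyte groups, the *Etv4* level was higher where the nuclei carried less neuronal RNA. This was not a rule for all glial groups. Divided again, 467 OPC nuclei with 133 CPM of *Slc17a7* held 101, 142 and 144 CPM of *Etv4* in C57BL/6, *Nav1* KO and BTBR, and *Etv4* was among their 10 leading genes. The 261 OPC nuclei with 541 CPM of *Slc17a7* held 21.4, 28.2 and 19.6, and 54.8% of them were among the 10% highest doublet scores, against 2.36% of the first group. The median depth was 3106 UMIs in this group and 1039 in the first. Astrocytes divided the same way between their largest groups. Their largest group, 778 nuclei led by *Atp13a4*, *Daam2* and *Glyctk* with 140 CPM of *Slc17a7*, held 71.5, 99.2 and 108 CPM of *Etv4*, and a group of 748 with 533 CPM of *Slc17a7* held 11, 18.6 and 31.5. The 267 astrocytes led by *Myoc* and *Gfap* held 26.3, 46.4 and 44.7 CPM of *Etv4* and 79, 132 and 89.4 of *Etv1*. In the mature oligodendrocytes, a group of 475 nuclei led by the myelin genes *Ermn*, *Mobp* and *Mag*, with 5168 CPM of *Mbp*, had no *Etv4* count in any library, while 312 nuclei led by astrocyte genes such as *Slc7a10* and *Ntsr2* held 19.3, 31 and 31.4 CPM. Without the nuclei that had a neuronal marker UMI, *Etv4* was 97.9 CPM (73.1 to 128) in OPCs and 61 (50.8 to 72.7) in astrocytes. Both were higher than in all nuclei of the class.

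*Etv5* had its highest class levels in the deep cortical layers, with OPCs close to them. Layer 6 corticothalamic neurons held 43.5 CPM in C57BL/6, 46.6 in *Nav1* KO and 68.2 in BTBR, and layer 5 held 47.3, 40.6 and 64.3, with BTBR the highest library in both. Pooled, the first was 52.1 CPM (47.2 to 57.4), 1.79 times the 29 of the other named classes, with 5.01% of 13922 genes past 1.5-fold, and the second was 47.8 (43.9 to 51.9), 1.67 times 28.7, with 2.19% of 14719 genes past it. OPCs held 48.5, 39.9 and 40.8 CPM, astrocytes 25.7, 34.4 and 35.4, and layer 2/3 held 19.7, 16.2 and 34. OPCs without a neuronal marker UMI held 64 CPM pooled (44.3 to 89.5; 34 counts), above both deep layers, whose intervals it overlaps. Layer 5 was above layer 6 corticothalamic neurons under 5 of the alternatives, so no order is read between them. Shares at 1000 UMIs were close together, at 5.13% of OPCs (26 of 507), 4.89% of layer 5 (146 of 2986) and 4.65% of layer 6 corticothalamic nuclei (132 of 2841) against 2.58% of microglia, and the lowest was 1.27% of meningeal fibroblasts (18 of 1412, 0.757 to 2.01; median depth 1322).

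Divided again, the deep layers showed where *Etv5* and *Etv1* part. The 244 layer 6b-like nuclei (*Ccn2*, *Svil*, *Cplx3* and *Nxph4*) held 128 CPM of *Etv5* in C57BL/6, 113 in *Nav1* KO and 75.9 in BTBR (109 pooled, 84.7 to 137), the highest pooled value among groups of over 50 nuclei, and 20.2 CPM of *Etv1*, the lowest of the corticothalamic groups. The near-projecting-like nuclei, with 666 CPM of *Etv1* pooled, held 32 of *Etv5*. The layer 5 group with extratelencephalic markers was high for both genes, with 68.3, 71 and 89.9 CPM of *Etv5*, and the layer 5 group with layer 2/3 markers was low for both, with 18.9 CPM of *Etv5* pooled. A group of 54 layer 5 nuclei led by the activity-induced genes *Fos*, *Npas4* and *Fosb* held 83 CPM of *Etv5*, on 17 counts (48.3 to 133). In OPCs the group with little neuronal RNA held 92.2, 48.8 and 56.7 CPM of *Etv5*, the C57BL/6 library being the highest there.

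**Figure D2:**
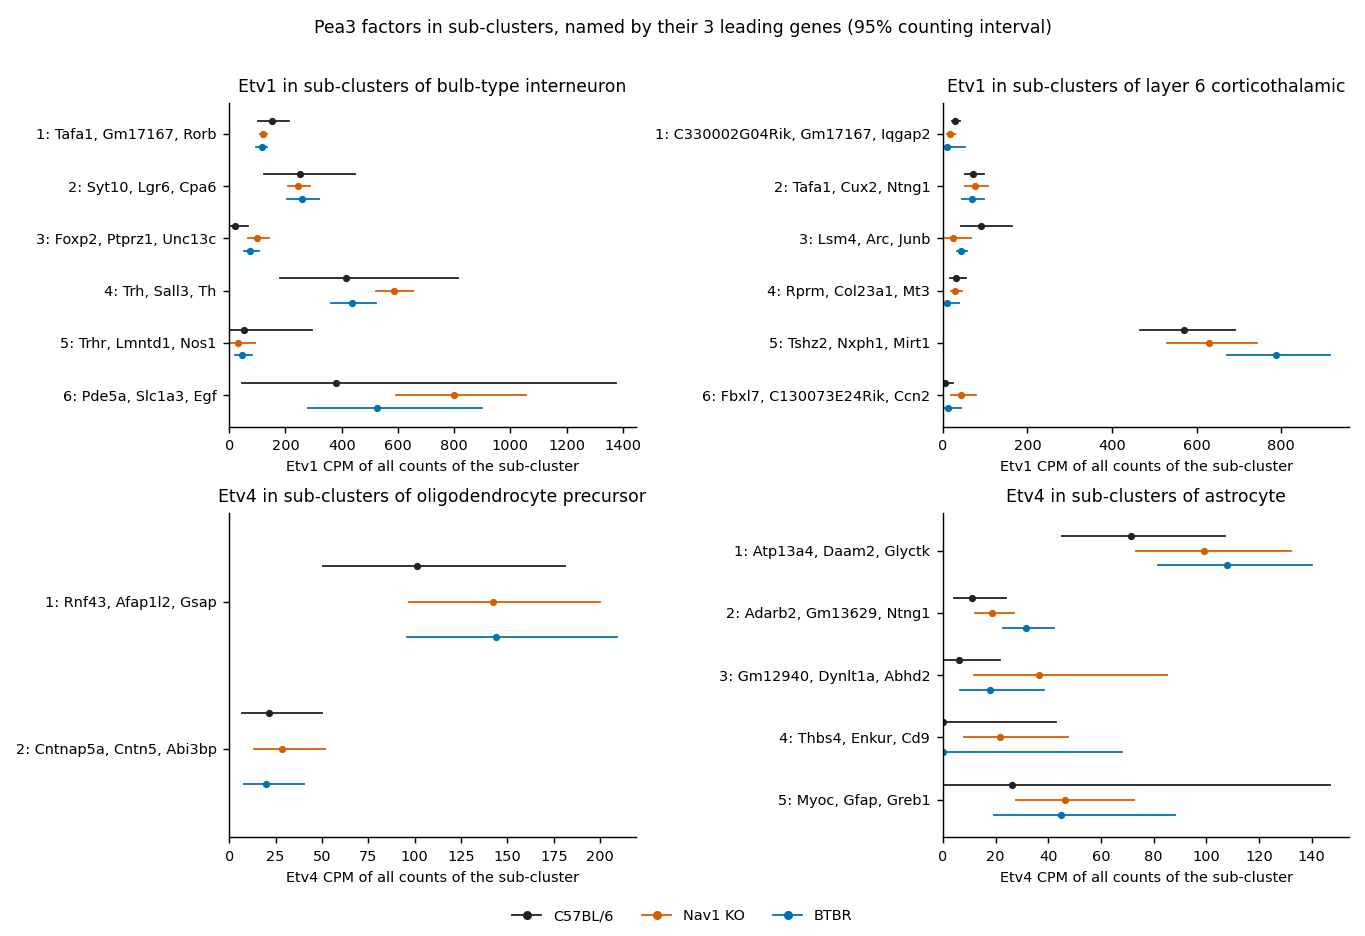
*Etv1* in the groups of bulb-type interneurons and layer 6 corticothalamic neurons and *Etv4* in those of OPCs and astrocytes, in CPM on axes with their own scale, for groups of at least 50 nuclei labelled by their 3 leading genes, with 1 point for each library and lines for exact 95% counting intervals. The near-projecting-like group led by *Tshz2* stood at 570 to 788 CPM of *Etv1*, the bulb-type group led by *Trh* at 414 to 586, and the OPC group with little neuronal RNA at 101 to 144 CPM of *Etv4*.

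At 1000 UMIs few nuclei had UMIs of more than 1 member, and few had any. Of 507 OPC nuclei, 127 had a UMI of 1 member, 9 of 2 members and 1 of all 3, so that 27% had any. Of 2021 astrocytes, 283 had 1 and 19 had 2 (14.9% with any), and 19.9% of bulb-type interneurons had any, 393 with 1 and 13 with 2. At this depth most nuclei that contain a transcript give no UMI, so a nucleus without one is not shown to lack the gene.

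Over whole libraries, *Etv1* was 69.4 CPM in C57BL/6, 88.9 in *Nav1* KO and 81.1 in BTBR. *Etv4* was 5.48, 7.63 and 9.42, and *Etv5* was 28, 28.6 and 36.1. C57BL/6 was the lowest library for each gene. Of the 3, only *Etv4* in BTBR passed 1.5-fold (1.72, 1.46 to 2.03), where 23% of all genes did, and none did in *Nav1* KO, where 20% of all genes did. The *Nav1* KO ratios were 1.28 (1.22 to 1.34) for *Etv1*, 1.39 (1.18 to 1.66) for *Etv4* and 1.02 (0.943 to 1.11) for *Etv5*, and the BTBR ratios of *Etv1* and *Etv5* were 1.17 (1.11 to 1.23) and 1.29 (1.19 to 1.39). Class composition moved with these ratios. The bulb-type interneurons gave 2.12% of the *Etv1* counts in C57BL/6, 19.8% in *Nav1* KO and 10.3% in BTBR. With each library weighted to the same mix of 30 clusters, the *Nav1* KO ratios became 1.13, 1.07 and 1.07 for *Etv1*, *Etv4* and *Etv5*, and the BTBR ratios 1.12, 1.31 and 1.41. The *Etv4* difference in BTBR was then below 1.5-fold, and that of *Etv5* in BTBR became larger.

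Within classes, *Etv1* passed 1.5-fold in *Nav1* KO over C57BL/6 in 3 of the 17 classes with enough counts. Layer 2/3 held 22.9 CPM against 42.5, a ratio of 0.538 (0.422 to 0.684), where 13.9% of genes passed. The layer 5 group led by layer 2/3 markers, which is not in these values, held 403 *Nav1* KO and 124 C57BL/6 nuclei. Its part in this ratio was not tested. Mature oligodendrocytes held 142 against 88.8, a ratio of 1.6 (1.29 to 2), where 24.3% passed, and microglia 152 against 78, a ratio of 1.96 (1.46 to 2.66), where 23.3% passed. These are differences between 2 libraries and are not shown for the genotypes. Mature oligodendrocyte nuclei without a neuronal marker UMI held 103 CPM in C57BL/6 (71.7 to 143), 96.3 in *Nav1* KO (61.7 to 143) and 90.3 in BTBR (60.5 to 130). These values rest on 35, 24 and 29 counts, too few to exclude a difference. The group led by astrocyte genes held 62 of the 548 C57BL/6, 94 of the 375 *Nav1* KO and 156 of the 445 BTBR nuclei. Its part in the mature oligodendrocyte ratios was not tested. For microglia without a neuronal marker UMI, *Etv1* was 40.6, 125 and 202 CPM in C57BL/6, *Nav1* KO and BTBR, the first on 5 counts. In bulb-type interneurons the *Nav1* KO ratio of 1.47 (1.13 to 1.96) stayed under 1.5, where 31.1% of genes passed. This holds for all nuclei of the class. Without nuclei that had a UMI of *Slc17a7*, it held 175 CPM in C57BL/6 (118 to 249; 30 counts) and 361 in *Nav1* KO (328 to 398), a difference past 1.5-fold. This class also differed in makeup. Its group led by *Trh*, *Sall3* and *Th* held 11 C57BL/6, 183 *Nav1* KO and 118 BTBR nuclei. A group led by *Foxp2*, *Ptprz1* and *Unc13c* held 75, 153 and 266, and the part of this mix in the ratio was not tested. Layer 5 had a *Nav1* KO ratio of 0.79 (0.695 to 0.9). In BTBR, *Etv1* passed in 3 of 18 classes. These were mature oligodendrocytes at 1.52 (26.8% of genes passed), microglia at 1.72 (26.6%) and pericytes or smooth muscle cells at 3.05 on 20 counts against 3 (36.7%). Without nuclei that had a neuronal marker UMI, pericytes or smooth muscle cells had no *Etv1* count in BTBR (20 nuclei) or C57BL/6 (17 nuclei), which are too few to compare.

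For *Etv4*, 6 classes had enough counts in each comparison. Middle layer neurons had them only in that of *Nav1* KO and bulb-type interneurons only in that of BTBR. The ratio to C57BL/6 passed 1.5-fold in 4 classes in *Nav1* KO and in 3 in BTBR, each time upward. In *Nav1* KO these were astrocytes at 1.57 (1.05 to 2.41), where 18.9% of genes passed, and OPCs at 1.57 (0.864 to 2.98), where 23.7% passed. They were also mature oligodendrocytes at 2.34 (1.04 to 5.59; 24.3% passed) and microglia at 2.32 (0.899 to 7.07; 23.3% passed). In BTBR they were astrocytes at 1.89 (1.27 to 2.9), where 20.9% passed, mature oligodendrocytes at 3.16 (1.52 to 7.16; 26.8% passed) and microglia at 3.79 (1.65 to 10.7; 26.6% passed). The C57BL/6 values behind these ratios rest on 32, 16, 10 and 6 counts in astrocytes, OPCs, mature oligodendrocytes and microglia, and the intervals of OPCs and of microglia in *Nav1* KO include 1. Of the classes past 1.5-fold, only astrocytes thus had 20 counts in C57BL/6. The others past 1.5-fold passed the count filter only through the library where *Etv4* was higher, so their upward direction follows in part from the filter. Without nuclei that had a neuronal marker UMI, astrocytes held 32.7, 72.1 and 68.8 CPM in C57BL/6, *Nav1* KO and BTBR, so C57BL/6 remained the lowest there, and OPCs held 89.4, 95 and 106. Mature oligodendrocytes then held 5.88, 32.1 and 21.8 CPM, on 2, 8 and 7 counts. Microglia held 8.12, 36.4 and 11.2, on 1, 7 and 1 counts, so both are too few to compare. Among all mature oligodendrocytes, the group led by astrocyte genes had 62, 94 and 156 nuclei in these libraries, and the myelin-led group had no *Etv4* count. The part of this mix in the ratios was not tested.

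*Etv5* was higher in BTBR than in C57BL/6 in 8 of the 11 neuronal classes, and in Pvalb and Sst interneurons and medium spiny neurons the ratio was 0.924 to 0.981. The BTBR ratio passed 1.5-fold in 6 of 16 classes, all upward: layer 6 corticothalamic neurons at 1.57 (1.23 to 1.99), where 18.7% of genes passed, middle layer neurons at 1.52 (1.18 to 1.96), where 19.3% passed, layer 2/3 at 1.73 (1.12 to 2.63), where 24.9% passed, Vip interneurons at 1.91 (1.14 to 3.34), where 18.6% passed, bulb-type interneurons at 1.81 (0.915 to 4.08), where 28.2% passed, and mitral or tufted neurons at 3.82 on 1 count in C57BL/6, where 38.3% passed. The last 2 passed the count filter only through BTBR, with 9 and 1 counts in C57BL/6. Layer 5 had 1.36 (1.08 to 1.71). The layer 2/3 class held 306 BTBR nuclei against 1320 from C57BL/6. An unnamed cluster nearest to the layer 2/3 marker list held 1609 from BTBR and 90 from C57BL/6, and it is not in the layer 2/3 values. Neuronal clusters differed in makeup between the libraries, since 493 of the 604 nuclei of a corticothalamic group led by *Lsm4*, *Arc* and *Junb* and 866 of the 961 of a like middle layer group were from BTBR, and they held 66.7 and 35.8 CPM of *Etv5*. The part of these groups in the BTBR ratios was not tested. In *Nav1* KO, *Etv5* passed in 4 of 17 classes. These were Vip interneurons at 1.52 (0.776 to 2.97; 18.1% of genes passed), layer 6 intratelencephalic neurons at 1.57 (0.704 to 3.28; 32.3%), ensheathing glia at 1.82 (53.9%) and mitral or tufted neurons at 4.13 (42.3%). The last 2 rest on 1 C57BL/6 count each and all 4 intervals include 1.

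**Figure D3:**
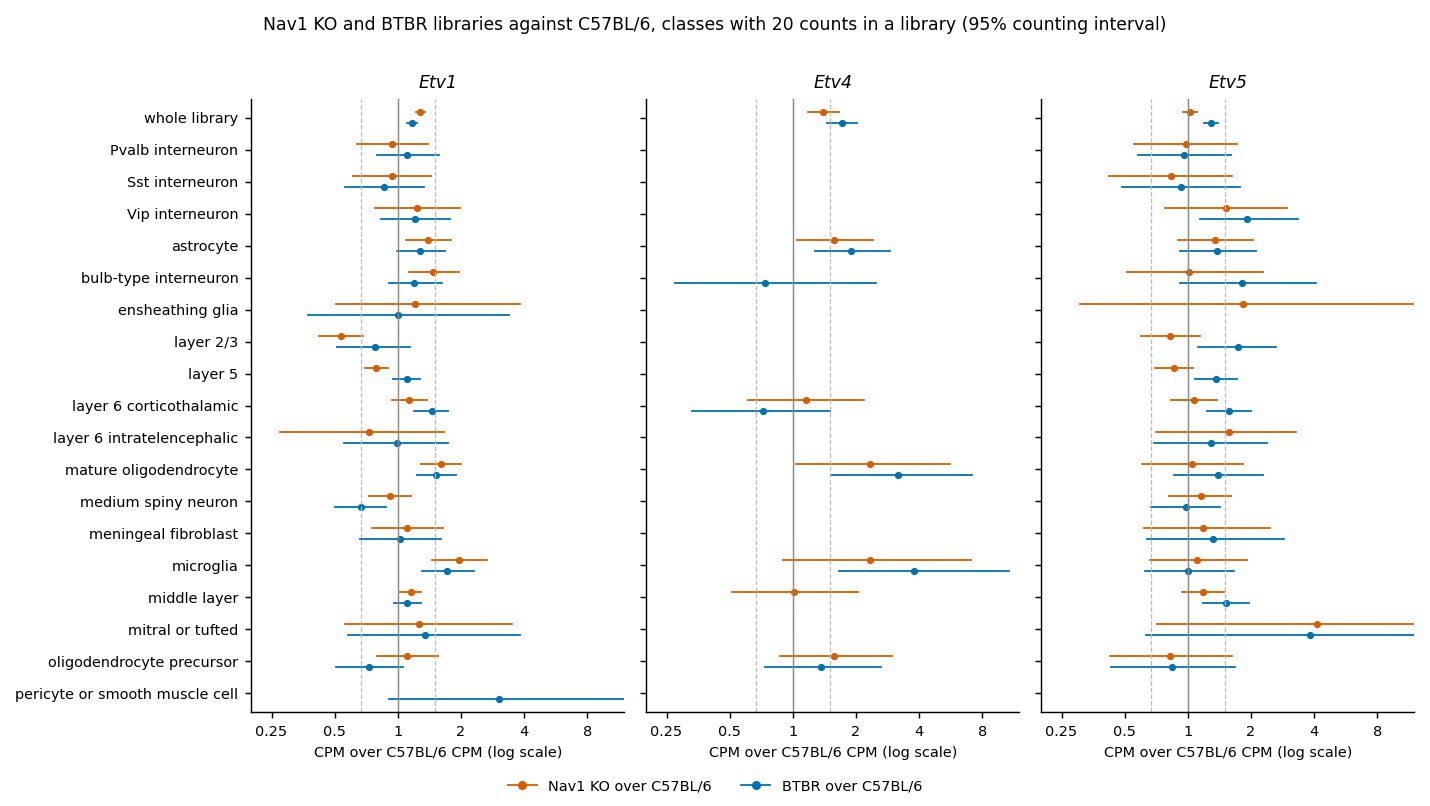
Ratio of CPM in *Nav1* KO and in BTBR over C57BL/6 for each gene by class on a log axis, with lines for exact 95% counting intervals that end at the edge of the axis where an interval goes further, and dashed lines at 1.5-fold in either direction. *Etv1* in layer 2/3 of *Nav1* KO lies at 0.538, and the *Etv4* ratios of astrocytes lie at 1.57 in *Nav1* KO and 1.89 in BTBR.

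The receptors, ligands and feedback genes of the pathway were described from 6 lists with 102 genes. In OPCs, the feedback inhibitors and ERK response genes stood out from the other lists by count. Of 17 genes, 12 had enough counts. Of these, 8 were at least 1.5-fold higher than in the other named classes and none was as much lower. The median ratio was 1.63 against 1.05 over all genes tested. Genes as low in the other classes as *Spry1* and *Spry4* pass the count filter in OPCs only where they are high there. The numbers of higher and lower genes therefore depend on the filter. *Spry1* stood at 62 CPM against 2.9 and *Spry4* at 34.3 against 2.76; both are Sprouty inhibitors of receptor signalling. *Phlda1* stood at 160 against 27.3 CPM, *Ccnd1*, which codes for the cell cycle protein cyclin D1, at 87.7 against 23.5, and *Il17rd*, an inhibitor of FGF signalling also called Sef, at 14.5 against 6.41. *Spred3*, *Spry2* and *Dusp6*, which codes for an ERK phosphatase, had ratios of 1.69, 1.57 and 1.55. Among the receptors, 5 of 11 were higher and 1 was lower. *Pdgfra*, at 532 against 9.12 CPM, was used to name the class, *Erbb3* and *Gfra1* had ratios of 7.19 and 7, and *Fgfr3* was lower at 0.613. The pseudokinases *Trib1* and *Trib2*, which bind the COP1 ligase, were higher at 2.69 and 3.32. Of 9 other ETS factors, *Elf1* was higher at 2.97 and *Ets2* lower at 0.618, and of the 19 genes of the Ras and ERK cascade only *Map2k1* was past 1.5-fold, on the lower side. Over all 6 lists, 17 of 71 genes were higher and 6 lower, with a median ratio of 1.04, where 14% of all genes tested were higher and 6.78% lower.

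In astrocytes the receptors were the list with the most higher genes. Of 14 receptors tested, 7 were higher and 3 lower, with a median ratio of 1.94 against 0.93 over all genes. This was not particular to astrocytes. Of 12 receptors, 7 were higher and 0 lower in mature oligodendrocytes and likewise in microglia, and in ensheathing glia 6 of 11 were higher and 2 lower. *Fgfr3* stood at 156 CPM against 8.54, *Fgfr1* at 146 against 38.6, *Fgfr2* at 54.8 against 20.5 and *Egfr* at 37.1 against 9.5. Of 13 feedback genes, *Spry2* and *Spry4* were higher, at 2.51 and 1.95, and the ligand genes *Fgf1* and *Fgf2* were higher at 5.59 and 1.85. In all, 15 of 82 list genes were higher and 6 lower, against 12.2% of all genes in each direction.

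In the neuronal classes with high *Etv1* or *Etv5*, more list genes were lower than higher, as among all genes tested. The share of lower list genes was above that of all genes in each class. The share of higher ones was above it in bulb-type interneurons and layer 5 and below it in layer 6 corticothalamic neurons. As in OPCs, genes that are low in the other classes, such as *Ret*, pass the count filter only where they are high. These shares therefore depend on the filter, and no enrichment is read from them. In bulb-type interneurons 8 of 83 list genes were higher and 11 lower, against 3.71% and 9.28% of all genes. The receptor gene *Ret* had a ratio of 4.18 at 3.33 CPM and *Fgfr2* one of 1.8, the ligand genes *Hgf*, *Fgf9* and *Egf* had 1.86, 1.61 and 1.51, and the receptor list as a whole had 6 of 14 genes lower. In layer 5, 4 of 86 list genes were higher, *Bdnf* at 1.72, *Fgf10* at 1.64, *Fgf18* at 1.56 and *Ets2* at 1.52, and 18 were lower, against 2.19% and 14.9% of all genes. In layer 6 corticothalamic neurons 2 of 82 were higher, *Trib1* at 1.79 and *Dusp5* at 1.58, and 23 were lower, against 5.01% and 15.3% of all genes. Receptors were lower in 8 of 13 cases in each of these 2 layers, with *Fgfr2* at 2.68 CPM in layer 5 and 2.75 in layer 6 against 25.4 and 24.5 in the other classes. This was not particular to them. In layer 2/3, the lowest class for all 3 members, 11 of 13 receptors were lower, and in middle layer and medium spiny neurons 9 of 13 were.

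**Figure D4:**
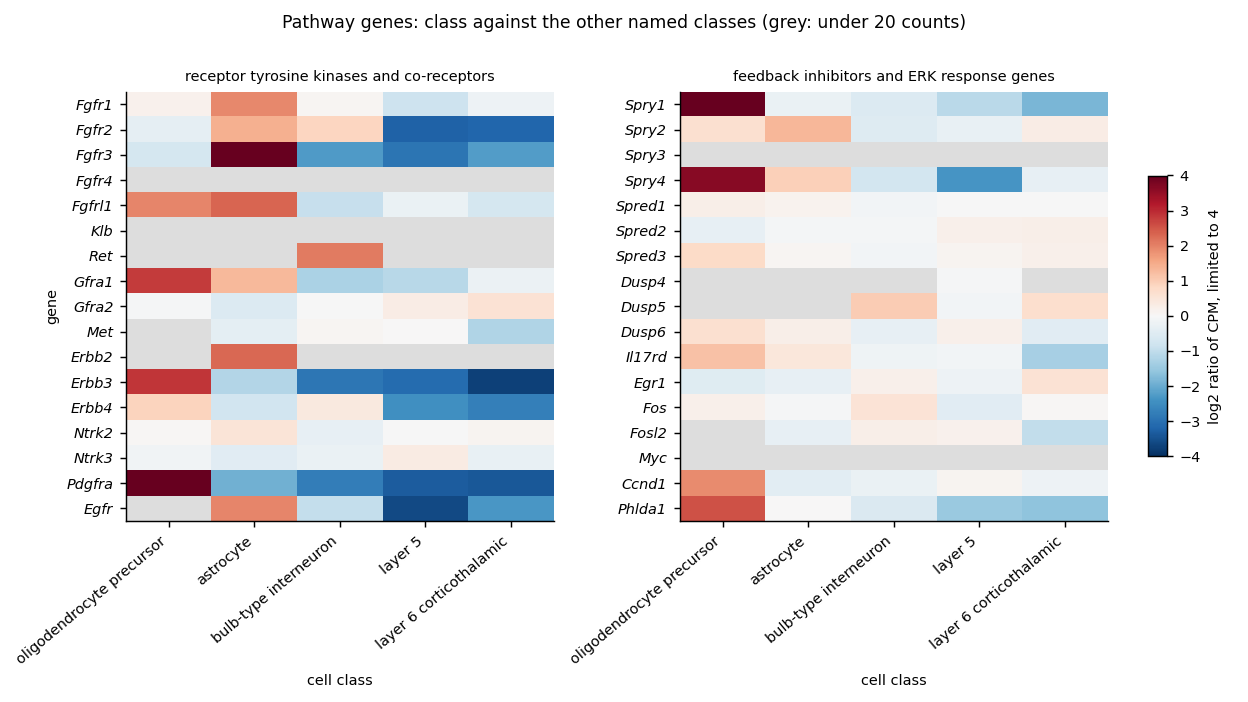
Heat map of the log2 ratio of CPM in 5 classes over the other named classes for the genes of the receptor list (left) and the feedback list (right), limited to 4 in either direction and grey where counts were under 20. The OPC column is higher for *Spry1* and *Spry4* (21.4 and 12.4 times), the astrocyte column for *Fgfr3* (18.3 times), and both deep layer columns are lower for *Fgfr2*.

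The genes whose log levels over the 19 classes were most like each member were sought among 10818 genes, as a description of 19 points that share libraries and depth. For *Etv4* they were *Ednrb* (r = 0.94), *Gpr37l1* (0.92), *Gpc5*, *AW047730* and *Tril* (0.90 each), and *Ednrb* kept r of 0.85, 0.83 and 0.84 in the C57BL/6, *Nav1* KO and BTBR libraries alone. For *Etv1* they were *Bbip1* (0.82), *Fscn1* (0.72), *Dleu2* (0.70), *Sall3* (0.69) and *4930509H03Rik* (0.66), and the first had only 0.03, 0.20 and 0.41 within the libraries, while *Sall3* had 0.38, 0.71 and 0.65. For *Etv5* they were *Prss12* and *Zfpm2* (0.71 each), *Fbxl6* and *Fezf2* (0.70 each) and *Igsf21* (0.69). In C57BL/6, *Nav1* KO and BTBR alone, *Prss12* had -0.12, 0.44 and 0.71, *Zfpm2* 0.04, 0.30 and 0.46, and *Igsf21* -0.06, 0.64 and 0.52. There *Fbxl6* had 0.61, 0.60 and 0.24, and *Fezf2* 0.32, 0.62 and 0.62. Among the members, r was 0.52 between *Etv1* and *Etv5*, 0.51 between *Etv1* and *Etv4* and 0.37 between *Etv4* and *Etv5*. Within the C57BL/6, *Nav1* KO and BTBR libraries these pairs had 0.38, 0.29 and 0.56, then 0.49, 0.58 and 0.43, and last -0.02, 0.31 and 0.09.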

How the data were processed

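The authors deposited 1 filtered matrix of UMI counts per library, made with Cell Ranger 6.0.0 on mm10 from 10x 3' libraries of NeuN-sorted nuclei. These deposited counts are raw, and no annotation of the nuclei was used. Nuclei with 200 or more genes and a mitochondrial share below 10% were kept, scaled to 10000 counts, log-transformed, and clustered together without integration (2000 variable genes, 30 principal components, 20 neighbours, Leiden resolution 1.5) in Python 3.11.15 with scanpy 1.11.5, scikit-learn 1.9.0 and leidenalg 0.10.2. A cluster was named from 29 marker lists where at least 3 markers of the list were up and no other list led it. No doublet was removed: Scrublet marked 1 C57BL/6, 3 *Nav1* KO and 1 BTBR nucleus, so its threshold did not work, and the 10% highest scores were left out as an alternative.

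For each class and library, the summed counts of a gene were divided by the summed counts of all genes to give CPM, and an exact Poisson interval was set. Nuclei were thinned to 1000 UMIs before those with a UMI were counted, which left 12236, 12807 and 12682 nuclei, with Clopper-Pearson intervals, and ratios of CPM were given an interval by splitting both counts binomially, each at 95% (scipy 1.17.1, numpy 2.4.6, pandas 2.3.3). Median depths were 2074, 2754 and 2510 UMIs per nucleus. A ratio between libraries counted as past the fold at 1.5 or beyond in either direction, with at least 20 counts in 1 of the 2 groups. For a class against the other named classes, the genes with enough counts varied with the class. They ran from 2771 in pericytes or smooth muscle cells to 15413 in middle layer neurons. Likeness is Pearson's r of log2(CPM + 5) over classes, among genes with at least 20 CPM in 1 class, and the 5 highest are named. The named genes are the 3 members, 102 genes of 6 pathway lists, *Nav1*, these nearest genes, and the markers or leading genes of a cluster or group. Groups within 7 classes came from a second clustering (resolution 0.5, 15 principal components, 1000 variable genes) and, like the levels without neuronal marker UMIs, were added after the data were seen. They take a cell type name only with 3 fixed markers among their 10 leading genes. The members and the lists were chosen with earlier results of these data known. The interval code was tested on simulated counts. Coding sequences and positions came from the mm10 annotation and were aligned with Biopython 1.88. They stand in for a planned comparison of the proteins, whose sequences were not used here. Other filters on nuclei, depths, resolutions and mixes of libraries were tried, and the closing section gives the values that moved.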

Additional observations from a re-analysis of the deposited data

Results flagged for a closer look

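*Etv1* moved in opposite directions between the *Nav1* KO and C57BL/6 libraries in different classes. The ratio was 0.538 in layer 2/3 neurons and 1.6 in mature oligodendrocytes and 1.96 in microglia, each past 1.5-fold with an interval that excludes 1. Of all genes tested, 13.9%, 24.3% and 23.3% passed 1.5-fold in these classes. BTBR over C57BL/6 went the same way in each, at 0.776 (0.515 to 1.14), 1.52 (1.23 to 1.89) and 1.72 (1.3 to 2.3). Both sets of ratios share the same C57BL/6 library, so they are not independent of each other. The layer 2/3 ratio of BTBR rests on 32 BTBR counts and its interval includes 1. The layer 2/3 values leave out a layer 5 group led by layer 2/3 markers, with 124 C57BL/6 and 403 *Nav1* KO nuclei. The *Etv1* levels of that group, given above, differed less between these libraries, and its part in the ratio was not tested. The difference between the classes was not tested, since each group is 1 library. In mature oligodendrocytes the libraries stood at 103 and 96.3 CPM (C57BL/6 and *Nav1* KO) among nuclei without a UMI of a neuronal marker, on 35 and 24 counts. In microglia the C57BL/6 value among such nuclei rests on 5 counts.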

How the results depend on the processing

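The level of *Etv1* in bulb-type interneurons (181 CPM) was 134 at Leiden resolution 0.8, 292 with 4000 variable genes, 192 without the 10% highest doublet scores and 290 without nuclei that had a UMI of *Slc17a7*, and 157 to 192 when each library was left out in turn. *Etv4* in OPCs (62 CPM) was 85.9 without the 10% highest doublet scores, 97.9 without nuclei that had a neuronal marker UMI and 55.8 to 66.9 when each library was left out. *Etv5* in layer 6 corticothalamic neurons (52.1 CPM) was 45.2 with 15 principal components and 45 to 56.9 when each library was left out, the lowest without BTBR. With the cluster mix of the pooled libraries, the *Nav1* KO ratio was 1.13 for *Etv1* and 1.07 for *Etv4*, and the BTBR ratio was 1.31 for *Etv4* and 1.41 for *Etv5*. The cause of these shifts was not tested. Clusters themselves differed between libraries, 1 of them with 1609 of its 1810 nuclei from BTBR, so the mix does not separate composition from level. Of the alternatives for these values, 29 moved by less than their counting interval and 14 by more, and for the other classes, shares and nearest genes 81 and 67. Some orders of classes changed. At resolution 0.8 the bulb-type level of *Etv1* was below OPCs (148) and microglia (138). *Etv5* in layer 5 was above layer 6 corticothalamic neurons at resolution 3 (53.8 against 48.6), with 4000 variable genes (63.7 against 52.9), under 5% mitochondrial counts (56.8 against 52.6), with at least 500 genes per nucleus (55.1 against 51.9) and without the 10% highest doublet scores (61.5 against 49.2). At 2000 UMIs the *Etv4* share was 3.79% in OPCs and 6.91% in astrocytes. At 500 and 2000 UMIs the *Etv1* share in bulb-type interneurons was 9.55% and 26.3%, and the *Etv5* share in layer 6 corticothalamic neurons 2.77% and 9.69%. Where no cluster took a name there is no value. This holds for bulb-type interneurons with 15 principal components, for layer 5 with 15 principal components and at resolution 0.8, and for layer 2/3 under both of these and without the 10% highest doublet scores. No paired analysis was possible because each group has 1 library. Depth limits *Etv4* most, with 212 to 461 counts per library and at most 21 counts in C57BL/6 in every named class but astrocytes.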

Other observations

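Among the other interneurons, *Etv1* was 62, 58.3 and 69.1 CPM in Pvalb interneurons of C57BL/6, *Nav1* KO and BTBR, 47, 43.9 and 40.5 in Sst interneurons and 34.2, 42.5 and 41.4 in Vip interneurons, so the Pvalb class was above the other two in each library. Without nuclei that had a UMI of *Slc17a7*, *Etv1* was 59.1 CPM in Pvalb, 43.2 in Sst and 22.9 (15.9 to 32; 34 counts) in Vip interneurons, the last below the 31.7 of all layer 2/3 nuclei, with an interval that includes it. *Etv4* in Vip interneurons was 8.12 CPM pooled (5.63 to 11.4), against 2.59 (1.12 to 5.1) in Pvalb and 3.16 (1.52 to 5.82) in Sst interneurons. In medium spiny neurons *Etv1* was 58.5, 53.8 and 39 CPM, with a BTBR ratio of 0.668 (0.503 to 0.876), just short of 1.5-fold. The unnamed clusters, with 11902 nuclei, held 65.5 CPM of *Etv1*, 5.46 of *Etv4* and 31.5 of *Etv5*, between the extremes of the named classes for each gene.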
